A study of Arabidopsis thaliana with 148 samples.

Results

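Genes whose transcripts peaked at subjective dawn in unheated Arabidopsis thaliana seedlings were followed through heat, through pull-down of ribosomes and through recovery. The set held 100 of the 38194 genes in the deposited count table. They were chosen from the total mRNA of unheated seedlings between Zeitgeber time (ZT, hours counted from the dawn of a day under lights) 48 and ZT69. Organelle genes were dropped, and 13373 nuclear genes averaged at least 10 CPM (the usual unit of counts scaled to a common library total) over the 8 times. Of these, 3071 had their highest mean at ZT48 or ZT51, and the 100 with the largest ratio of highest to lowest mean, each with 1 CPM added, were taken. The core clock genes CCA1, LHY and PRR9 were left out of the choice by the rule.

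All seedlings carried p35S:HF-RPL18, a ribosomal protein tagged with an epitope and driven by the constitutive 35S promoter, so that no group lacks the transgene. RNA was read from whole seedlings (total mRNA) and from the ribosomes captured through the tag, a procedure called translating ribosome affinity purification (TRAP). Seedlings were raised for 10 days at 22 °C with 12 h of light in each cycle and were kept in constant light from day 11, which makes the dawn at ZT48 a subjective one. On day 13, heated seedlings spent 1 h at 37 °C that ended at ZT48, ZT51, ZT54, ZT57, ZT60, ZT63, ZT66 or ZT69, and controls remained at 22 °C and were taken at the same times and at ZT72. In a second experiment the hour of heat ended at ZT54 and seedlings were taken 0, 1, 3 and 6 h later (ZT54, ZT55, ZT57 and ZT60) beside controls of the same times. Groups held 3 libraries, except the total mRNA controls at ZT57 and the TRAP controls at ZT60 with 2 each. The labels do not say whether replicates were grown separately or whether total and TRAP RNA came from the same seedlings, and the p-values cover only the spread between libraries, which may be technical.

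The plant clock is a set of transcription factors that repress each other in turn over the day. CCA1 and LHY, a pair of related MYB proteins, accumulate around dawn and repress genes of the evening, while the related protein RVE8 works with the LNK coactivators to switch on afternoon and evening genes. Light-harvesting proteins bind chlorophyll and feed excitation energy to the photosystems, and their genes are among the best-known morning genes of leaves. CDF1 and CDF3, which are DOF factors, and the CONSTANS-like and B-box (BBX) zinc finger proteins link the clock with light, flowering and growth.

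Library totals ran from 1396305 to 13706459 counts. All 18 genes of a light-harvesting list had counts in every library, and at least 5 of 7 root marker genes did, as in whole seedlings. A list of 9 heat shock genes summed to 54856 CPM or more in every time-course library labelled as heated and to at most 2586 CPM in the controls. The highest control was replicate 2 of the total mRNA at ZT54. In the recovery experiment the libraries labelled ZT60 control replicate 2 stood apart in both kinds of RNA. Their log2 CPM correlated more with the heated seedlings at 3 h of recovery, at 0.9813 in total mRNA and 0.9898 in TRAP, than with their own group, at 0.93 and 0.9226, and their heat shock genes summed to 1108 and 1310 CPM. The TRAP library labelled ZT57 control replicate 1 correlated at 0.8902 with its group. Results of the recovery experiment are therefore also given without these 3 libraries.

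Part of the set changed in a single step between earlier and later libraries. Of the 100 genes, 15 lie in sequence that occurs more than once in the genome, among them an 18S ribosomal RNA gene (AT2G01010), the phosphoglycolate phosphatase gene PGLP1, MIR5630a and MIR5630b, and the cluster from AT1G58684 to AT1G59359. Their summed counts lay between 18039 and 253187 in 46 of the 47 libraries of ZT48 to ZT57, and between 12 and 340 in all 53 libraries of ZT60 to ZT72. The step came between ZT57 and ZT60 in controls and heated seedlings of both kinds of RNA. The remaining library, the heated TRAP library labelled ZT57 replicate 3, had 32 counts for these genes and 127433 for the other 85. Across the table, 47 of 52 expressed genes with no unique stretch of 50 exon bases fell more than 10-fold between these 2 sets of times, against 3 of 14724 genes unique over at least 50% of their positions and 0 of 13133 genes unique throughout. In the 48 recovery libraries the 15 genes were at or near 0 as well. The files do not say how reads with several matches were counted, and its part in this step was not tested. The 15 genes are not described further, and the 12 largest ratios of the rule, from 67.3 to 1917, all belonged to them.

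**Figure D1:**
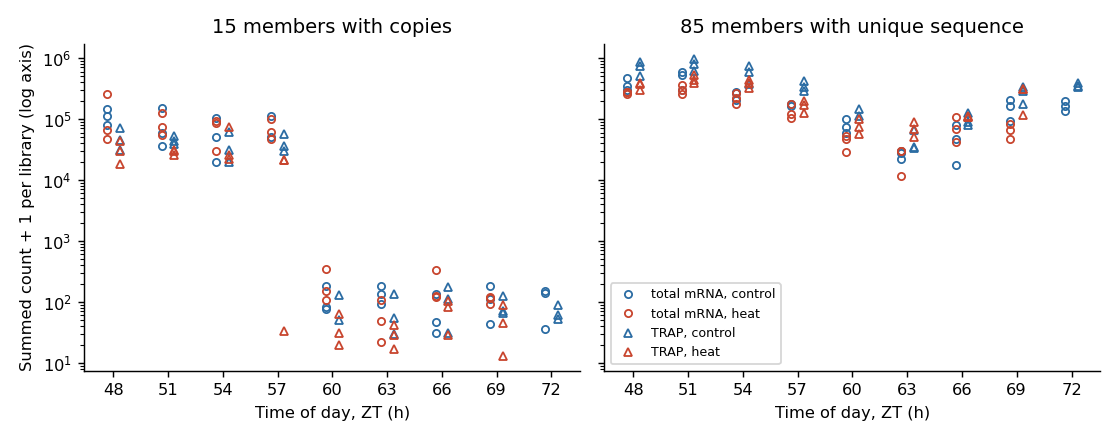
Summed counts plus 1 (log axis) in each time-course library against ZT, for the 15 genes in repeated sequence on the left and the 85 others on the right. Circles are total mRNA, triangles TRAP, blue controls and red heated seedlings, and the left panel drops from at least 18039 to at most 340 counts between ZT57 and ZT60 apart from 1 heated TRAP library at ZT57 with 32.

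The 85 genes with unique sequence averaged between 10.4 and 5877 CPM in the total mRNA controls. Their ratios, which the rule used and which are given as a description, ran from 60.8 for LHCB2.2 down to 4.07. The highest mean was at ZT48 for 51 genes and at ZT51 for 34, and all 11 light-harvesting genes were in the later group. The lowest mean fell at ZT57 for 15 genes, at ZT60 for 27, at ZT63 for 36 and at ZT66 for 7. Just inside the threshold stood MIPS2 at 4.09, RPT2 at 4.09 and CNGC12 at 4.07, and just outside AT1G07993 at 4.03, AT3G08795 at 4.02 and RCA at 4.00. One of the 85, NSP4, a nitrile specifier protein of glucosinolate breakdown with 76.2% of its positions unique, shared the step of the repeated genes. In TRAP controls it stood at 60.8, 62.6 and 60.5 CPM at ZT57 and at 0.802 and 1.08 CPM at ZT60, and it was at 0 in the heated TRAP library labelled ZT57 replicate 3. It stays in the counts below, and each count of genes higher at ZT48 and ZT51 than at ZT60 and ZT63 is 1 lower without it. Counts of genes in which heat changed that difference stay the same.

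Several lists of genes were followed among the 85. The light-harvesting genes were LHCB1.1, LHCB1.2, LHCB2.1, LHCB2.2, LHCB2.3, LHCB3, LHCB4.2 and LHCB6 of photosystem II and LHCA1, LHCA3 and LHCA4 of photosystem I. The clock list gave LNK1 to LNK4, RVE1 and RVE8. B-box, CONSTANS-like and CDF genes were BBX16, BBX18, BBX25, BBX30, COL1, COL2, CDF1 and CDF3, and BBX28 joined them outside the list. Light and ultraviolet signalling contributed HYH, a relative of the regulator HY5, RUP2, a repressor of the UVR8 photoreceptor, and SIG5, a sigma factor of the chloroplast RNA polymerase. Chlorophyll synthesis contributed CHLH, a subunit of magnesium chelatase, and CAO, which makes chlorophyll b. Of the 85, 36 overlapped another annotated gene, 31 of them on the opposite strand, and whether the counting used strand is not given, so reads of such pairs cannot be told apart. The values of COL1 and the overlapping non-coding AT5G15845 were nearly identical, as were those of AFR and AT2G24545, so these pairs are not independent members. LHCB1.1 with LHCB1.2, LHCB2.1 with LHCB2.2, and FRO6 with FRO7 are close relatives, unique over 70.5% to 89.4% of their positions, and the division of reads between them is uncertain.

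Promoter sequence was set beside these levels because the genes move together. The 250 bases before the annotated start were read from the RefSeq genome TAIR10.1 for the 80 protein-coding genes among the 85 and for 27431 protein-coding nuclear genes, and both strands were searched. The GATA core GGATA was present in 52.5% of the members' windows and in 28.8% of all windows, and in 8 of the 11 light-harvesting windows. The G-box CACGTG was present in 18.75% against 6.49%, and the related element CACATG in 18.75% against 11.1%. The CCA1-binding site AAAAATCT was present in 6.25% against 6.68%, the evening element AAAATATCT in 1.25% against 2.36% and the morning element core CCACAC in 8.75% against 6.17%. The telo-box core AAACCCT occurred in 2.5% against 7.33%, and the heat shock element core GAANNTTC in 7.5% against 9.54%. Hits of different motifs overlapped in 1 of the 80 windows. These shares are descriptions of letters in a window, not of binding. The windows of 5 members are shown 5′ to 3′ on the gene's strand to let the arrangement be seen, with the G-box, the GATA core and the CCA1-binding site in capitals on either strand. They lie at chr3:10255656-10255905, plus strand (LHCB2.3), chr1:10475970-10476219, minus strand (LHCB1.1), chr3:17495034-17495283, minus strand (LHCA4), chr3:3923265-3923514, plus strand (LNK3) and chr4:13675287-13675536, plus strand (BBX28), and hold no annotated exon of the gene.
LHCB2.3: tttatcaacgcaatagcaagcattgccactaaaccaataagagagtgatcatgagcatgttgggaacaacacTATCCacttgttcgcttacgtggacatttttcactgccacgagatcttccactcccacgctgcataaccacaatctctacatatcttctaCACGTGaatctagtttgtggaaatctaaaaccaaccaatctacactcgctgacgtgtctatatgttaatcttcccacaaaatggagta
LHCB1.1: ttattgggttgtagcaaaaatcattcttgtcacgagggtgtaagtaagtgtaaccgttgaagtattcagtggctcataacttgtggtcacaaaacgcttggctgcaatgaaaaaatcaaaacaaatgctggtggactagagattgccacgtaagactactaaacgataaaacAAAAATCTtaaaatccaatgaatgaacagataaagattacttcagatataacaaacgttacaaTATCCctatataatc
LHCA4: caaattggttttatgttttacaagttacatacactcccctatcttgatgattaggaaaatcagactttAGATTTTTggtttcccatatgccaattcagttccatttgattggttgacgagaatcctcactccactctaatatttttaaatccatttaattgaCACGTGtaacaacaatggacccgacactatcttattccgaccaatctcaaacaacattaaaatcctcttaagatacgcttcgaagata
LNK3: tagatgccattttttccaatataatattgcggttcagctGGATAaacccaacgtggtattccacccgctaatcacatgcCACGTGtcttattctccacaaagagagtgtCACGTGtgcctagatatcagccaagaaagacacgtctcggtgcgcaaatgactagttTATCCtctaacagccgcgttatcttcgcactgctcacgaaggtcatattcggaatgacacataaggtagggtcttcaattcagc
BBX28: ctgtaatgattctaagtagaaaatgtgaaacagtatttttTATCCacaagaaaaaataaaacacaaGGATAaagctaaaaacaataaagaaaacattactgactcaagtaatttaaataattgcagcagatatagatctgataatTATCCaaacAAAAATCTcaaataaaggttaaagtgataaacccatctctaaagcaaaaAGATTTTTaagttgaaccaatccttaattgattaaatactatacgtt
The LNK3 window held both of its G-boxes in the part farther from the start. The BBX28 window held CCA1-binding sites on both strands. These windows are examples and do not stand for the set. The CCA1-binding site, seen here in LHCB1.1, LHCA4 and BBX28, was present in 6.25% of the members' windows. The G-box, seen here in LHCB2.3, LHCA4 and LNK3, was present in 18.75% of them.

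The rhythm was present in ribosome-bound RNA. The TRAP libraries of controls were not used by the rule. Whether they came from the same seedlings as the total mRNA controls that chose the genes is not given. All 85 genes were higher at dawn (mean of ZT48 and ZT51) than at dusk (mean of ZT60 and ZT63). The test was edgeR's quasi-likelihood test at an adjusted p below 0.05, by which 19.9% of the 21079 genes tested were higher. The median difference was 2.36 on the log2 scale, against 0.0003 over all genes. Levels are hereafter CPM on library sizes scaled by TMM, a factor that sets the typical gene equal between libraries. LHCB2.1, an antenna protein of photosystem II, stood at 2954, 2871 and 2854 CPM at ZT51 and at 68.6, 43.0 and 58.3 CPM at ZT63 in the TRAP controls. LNK3 stood at 88.1, 80.9 and 88.4 CPM and 1.1, 1.76 and 1.51 CPM, and BBX28 at 53.7, 48.6 and 84.0 CPM and 1.46, 1.76 and 1.31 CPM. In each of these genes every dawn library lay above every dusk library. The dawn to dusk difference was 4.32 ± 0.11 (SE), adjusted p = 1e-38, for LHCB2.1 and 5.21 ± 0.14 (SE), adjusted p = 1.6e-38, for LNK3. The largest among the lists was that of BBX16, a B-box zinc finger protein, at 5.46 ± 0.17 (SE), adjusted p = 6.71e-31. Of the clock list outside the set, 7 of 28 genes were higher at dawn and 14 lower, and of the light-harvesting list outside it 6 of 7 were higher with a median of 1.42, against 3.19 for the 11 members.

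The comparison was also made within each set of times, ZT48 to ZT57 and ZT60 to ZT72. Within the first set, ZT48 and ZT51 exceeded ZT57 for 81 of the 85 genes in TRAP controls, where 15.4% of all genes were higher. The median was 1.78. Within the second set, the next subjective dawn at ZT72 exceeded ZT60 for 82 of the 85 in TRAP controls, against 11.9% of all genes, with a median of 2.44. The gene AT5G62280 was lower at ZT72, at -0.86 ± 0.20 (SE), adjusted p = 0.000542, and NSP4 and AT1G06045 did not pass the test. Without replicate 3 AT5G62280 was no longer called. In the total mRNA controls, given as a description because the rule used the levels at ZT60, all 3 ZT72 libraries lay above all 3 ZT60 libraries for 82 of the 85, where 10.6% of the 13373 expressed genes did so. LHCB2.1 reached 1908, 2033 and 1865 CPM at ZT72 in TRAP, LNK1 74.4, 74.4 and 64.5 CPM and MIPS2 73.8, 65.6 and 80.0 CPM.

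The same fall was seen in the separate recovery experiment. Its controls at ZT60 were lower than those at ZT54 for 78 of the 85 genes in total mRNA and 76 in TRAP, where 4.37% and 5.95% of all genes were lower. The median was -1.33 and -1.43 on the log2 scale, and none was higher. Without the libraries in doubt 80 and 81 genes were lower, where 1201 of 20984 and 2549 of 20782 genes were. All 6 clock members, all 11 light-harvesting members and all 8 of the B-box, CONSTANS-like and CDF list were among them in both kinds of RNA.

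Heat left most of the peaks at dawn. The highest mean lay at ZT48 or ZT51 for 67 of the 85 genes in heated total mRNA (78.8%) and for 69 in heated TRAP (81.2%), beside 79 (92.9%) in the TRAP controls. Over all genes averaging at least 10 CPM in the same libraries these shares were 20.9%, 24.7% and 16.1%. Among heated libraries, dawn exceeded dusk for 82 of the 85 genes in total mRNA, where 21.6% of all genes were higher, and for 82 in TRAP, where 23.7% were. The 3 others were AT5G62280, AT5G20790 and AT5G19190 in both. Against ZT57 the counts were 76 in heated total mRNA (13.8% of all genes) and 78 in heated TRAP (16.5% of all genes). The count in TRAP includes the heated library labelled ZT57 replicate 3, in which the repeated genes were as low as in later libraries. The median ratio of highest to lowest mean, each with 1 CPM added, was 4.72 in heated total mRNA and 4.70 in heated TRAP, beside 6.78 in the TRAP controls. In the total mRNA controls the median was 6.73, which is the ratio the genes were chosen on and is not compared.

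**Figure D2:**
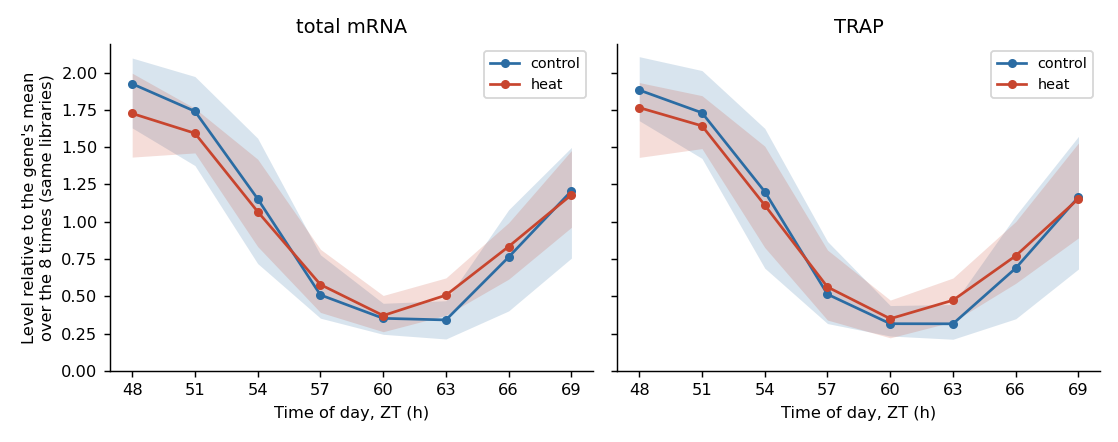
Level of the 85 genes at each ZT relative to each gene's own mean over the 8 times, as the median (line) and the middle 50% of genes (band), for total mRNA on the left and TRAP on the right, controls in blue and heated seedlings in red. At ZT63 the heated medians stood at 0.507 in total mRNA and 0.473 in TRAP against 0.341 and 0.315 in controls, and at ZT48 at 1.73 and 1.76 against 1.92 and 1.88. The total mRNA controls are those the rule used.

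The set answered heat in both directions. Averaged over the 8 times, 53 of the 85 genes were higher and 16 lower in heated TRAP, where 38.1% and 45.5% of all genes were. In total mRNA 50 were higher and 27 lower, where 36.9% and 43.9% of all genes were, and these heat effects share their controls with the rule. The median effect was 0.45 in TRAP and 0.26 in total mRNA, beside -0.09 and -0.08 over all genes. These directions are relative to the typical gene. The 9 heat shock genes alone held 54856 CPM or more of each heated library. With library totals in place of the TMM factors the median of all genes moved to -1.26 in TRAP and -1.04 in total mRNA. Then 12 of the 85 were higher in each, and 69 and 64 lower. Of all genes, 1652 of 21079 were higher and 18536 lower in TRAP, and 1928 of 21234 were higher and 18050 lower in total mRNA. Under both scalings 12 genes were higher in TRAP (7.84% of all genes) and 16 lower (45.5%), and in total mRNA 12 were higher (9.08%) and 27 lower (43.9%). Falls made up a smaller share of the 85 than of all genes in each of these counts. Fewer cells that express a gene and less RNA per cell cannot be told apart in whole seedlings.

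The 12 genes higher under both scalings were the same in both kinds of RNA. They were MIPS2, LNK1, LNK3, LNK4, RVE1, CDF1, BBX18, BBX30, AT1G62510, AT1G06045, AT1G69160 and the non-coding AT3G03535. MIPS2 makes the precursor of inositol. Its TRAP level at ZT48 went from 92.3, 71.8 and 78.2 CPM in controls to 2275, 2316 and 3353 CPM in heated seedlings, and at ZT60 from 17.7 and 15.4 CPM to 980.1, 816 and 880.0 CPM. The groups did not overlap at either time. The mean heat effect of MIPS2 was 5.42 ± 0.09 (SE), adjusted p = 2.89e-37, and 4.24 with library totals. LNK1, a clock coactivator, went from 92.3, 84.9 and 80.3 CPM to 354, 396 and 357 CPM at ZT48 and from 22.3 and 19.7 CPM to 207, 235 and 216 CPM at ZT60. CDF1, which represses flowering genes, went from 36.2, 37.3 and 40.8 CPM to 139, 221 and 138 CPM at ZT48 and from 5.88 and 6.69 CPM to 83.7, 92.3 and 91.4 CPM at ZT60. In both genes heated dusk libraries stood above control dawn libraries. Their mean effects were 3.15 ± 0.04 (SE), adjusted p = 3.2e-59, for LNK1 and 2.96 ± 0.05 (SE), adjusted p = 3.13e-48, for CDF1. AT1G62510, a member of the lipid-transfer protein family, rose by 3.76 and LNK3 by 2.23.

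**Figure D3:**
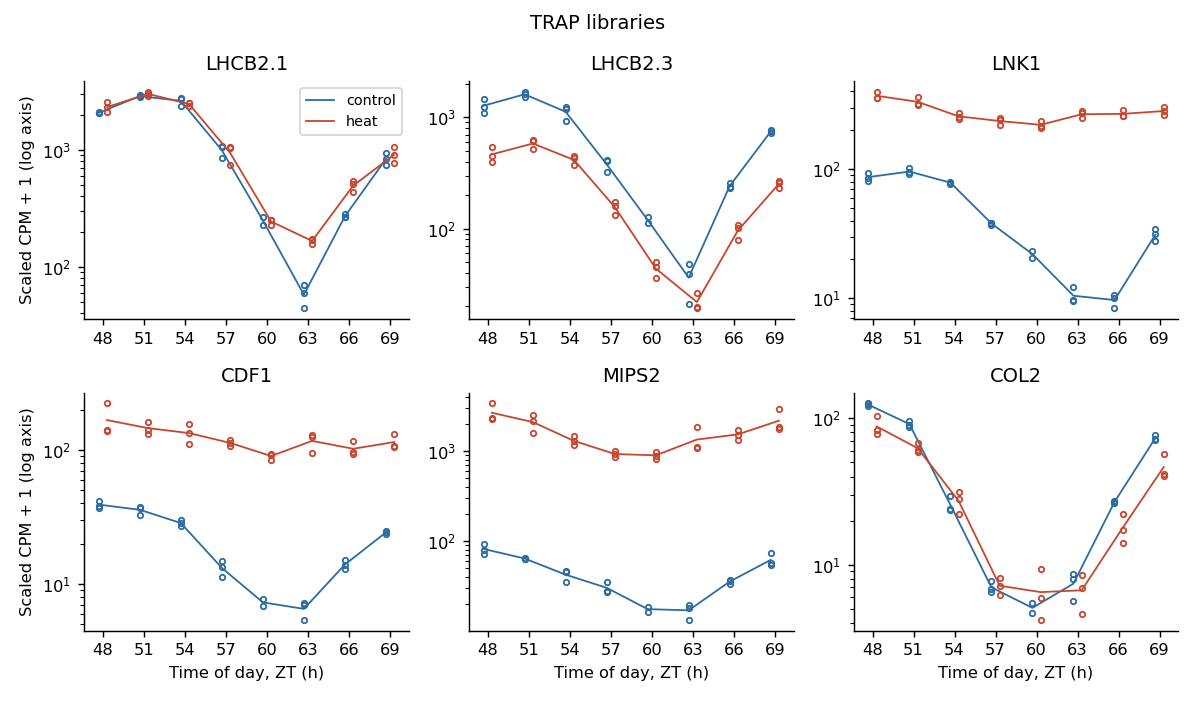
TRAP level (scaled CPM plus 1, log axis) of 6 genes against ZT, with 1 point per library and a line through the group means, controls in blue and heated seedlings in red. LNK1, CDF1 and MIPS2 are higher in every heated library, LHCB2.3 is lower in heated seedlings at most times, LHCB2.1 parts from its control at ZT63, and COL2 keeps nearly the same course.

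The largest falls in TRAP were those of AT5G20790 at -4.17, AT1G13650 at -2.62, the ion channel gene CNGC12 at -2.47, the lipid-transfer family gene AT5G48490 at -2.31 and RUP2 at -2.0. AT5G20790, an uncharacterized gene, stood at 28.2, 30.0 and 22.1 CPM in TRAP controls at ZT48 and at 0, 0.568 and 0.353 CPM in heated seedlings, so its fitted fold rests on a few counts in the heated libraries. These 5 genes fell under both scalings and in total mRNA as well. Of the 3 members in light and ultraviolet signalling, RUP2 fell in TRAP, and HYH and SIG5 stood at -0.02 and -0.06 without passing the test. In total mRNA all 3 were lower, with -0.42 for HYH and -0.25 for SIG5, under both scalings. UNE10, a basic helix-loop-helix gene, fell by 1.03 and the ferric reductase genes FRO6 and FRO7 fell by 0.50 and 0.80.

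Light-harvesting genes were higher after heat relative to the typical gene but not relative to all reads. With TMM scaling 10 of the 11 members were higher in TRAP and LHCB2.3 was lower, with a median of 0.82, and the same 10 were higher in total mRNA. With library totals all 11 stood below 0 in TRAP, from -0.04 for LHCB4.2 to -2.45 for LHCB2.3. In total mRNA LHCB4.2 stood at 0.01 and the other 10 below 0. LHCB2.3 had the lowest value of the 11 under either scaling. At ZT51 it went from 1524, 1617 and 1696 CPM to 620.0, 610.1 and 516 CPM, while LHCB2.1 went from 2954, 2871 and 2854 CPM to 2901, 3019 and 3145 CPM. Libraries of the 2 groups did not overlap for LHCB2.3. The mean effect was -1.28 ± 0.06 (SE), adjusted p = 5.74e-23, for LHCB2.3 and 0.39 ± 0.05 (SE), adjusted p = 8.82e-12, for LHCB2.1. The difference between these effects was not itself tested.

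Clock members moved apart. In TRAP, LNK1, LNK3 and LNK4 rose by 3.15, 2.23 and 1.49 and RVE1, a MYB-like relative of CCA1, by 1.84, all also with library totals. LNK2 was called higher at 0.15 but stood at -1.03 with library totals. RVE8 stood at 0.07 in TRAP without passing the test and fell by 0.74 in total mRNA. Of the 28 clock genes outside the set 17 were higher and 9 lower in TRAP. In the B-box, CONSTANS-like and CDF list 6 of 8 members were higher in TRAP and COL2 was lower, while BBX25 did not pass the test. Of these 6, BBX18, BBX30 and CDF1 were higher with library totals too, and BBX16, COL1 and CDF3 were not.

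The size of the heat effect depended on time of day for some of the genes. At dawn 43 of the 85 were higher and 19 lower in TRAP, where 34.3% and 36.6% of all genes were. At dusk 52 were higher and 14 lower, where 30.8% and 35.4% of all genes were. With library totals 9 were higher and 73 lower at dawn, where 1554 and 18022 of 21079 genes were. At dusk 16 were then higher and 50 lower, where 1406 and 17803 of 21079 genes were. With TMM scaling the median heat effect was 0.27 at dawn and 0.66 at dusk. Tested as a difference between the effects, which is the same as the change of the dawn to dusk difference with heat, 28 genes had a smaller dawn to dusk difference in heated TRAP, where 2.04% of all genes did, and 1 had a larger one, where 4.05% of all genes did. This contrast shares its TRAP controls with the test of the control rhythm. The 28 were called under library totals as well. Their median dawn to dusk difference went from 2.59 in controls to 1.60 in heated TRAP, a direction fixed by choosing them on this test. Of the 28, 25 were called higher in heat at dusk with TMM scaling, where 30.8% of all genes were. The choice favours such calls, so this count describes the 28 and is no separate support. With library totals their heat effects at dusk went both ways, from 4.92 for MIPS2 to -3.25 for AT5G20790. LNK1 stood at 2.95 and PIF5 at 0.76, while LHCB2.1 stood at -0.37 and CAO at -0.75. With ZT57 in place of ZT60 and ZT63, 12 of the 85 had a smaller difference (0.802% of all genes), and 11 of these were among the 28. ZT57 belongs to the first set of times. The heated TRAP library labelled ZT57 replicate 3, however, had counts of the repeated genes as low as in the second set. The comparison with ZT57 was not rerun without that library.

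**Figure D4:**
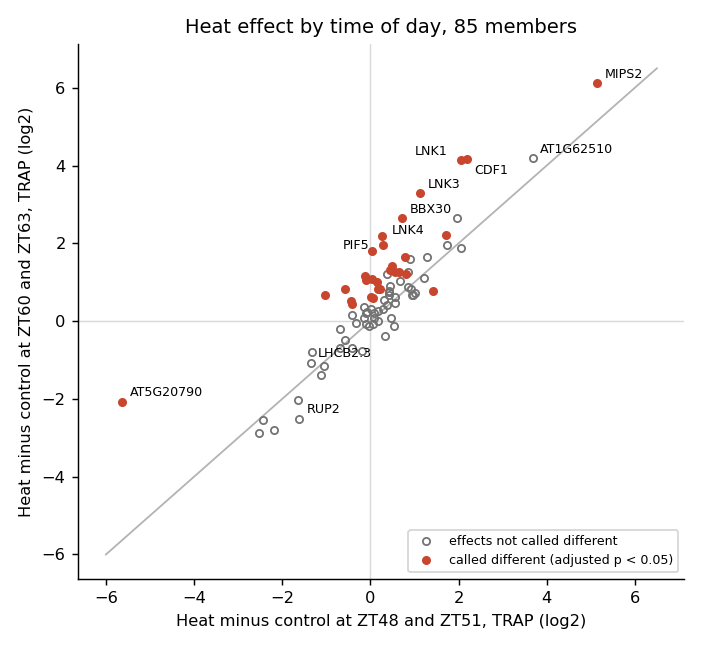
Heat effect in TRAP (log2, heated minus control) at ZT60 and ZT63 on the vertical axis against that at ZT48 and ZT51 on the horizontal axis, 1 point for each of the 85 genes, with the line of equality. Filled points are the 29 genes whose effects differed at an adjusted p below 0.05, of which 28 lie above the line and AO below it.

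Leading genes of this group fell less from dawn to dusk after heat. LNK3 in TRAP controls went from 79.0, 74.8 and 80.5 CPM at ZT48 to 3.48 and 2.51 CPM at ZT60, and in heated seedlings from 173, 167 and 191 CPM to 17.2, 14.0 and 16.0 CPM. Its difference shrank by 2.16 ± 0.19 (SE), adjusted p = 4.15e-13. PIF5, a growth-promoting factor that binds phytochrome, went from 80.4, 81.0 and 77.4 CPM to 25.4 and 25.9 CPM in controls and from 97.6, 123 and 74.1 CPM to 63.8, 55.7 and 65.6 CPM in heated seedlings. Its dawn to dusk difference was 2.27 in controls and 0.60 in heated TRAP. The change was -2.08 ± 0.11 (SE), adjusted p = 4.81e-23, for LNK1 and -1.96 ± 0.16 (SE), adjusted p = 5.88e-14, for CDF1. AT5G20790 had the largest change at -3.55, with heated libraries at or near 0 throughout the day. Among the 28 were 9 of 11 light-harvesting genes, 4 of 6 clock genes (LNK1, LNK3, LNK4 and RVE1) and 3 of 8 in the B-box, CONSTANS-like and CDF list (BBX30, CDF1 and CDF3). For the light-harvesting genes none of the 9 was called with ZT57 in place of dusk. LHCA4, an antenna protein of photosystem I, went from 405, 376 and 396 CPM to 1808, 1768 and 1466 CPM at ZT63 and from 5351, 5428 and 7253 CPM to 7273, 7849 and 8955 CPM at ZT51. With library totals this heat effect of LHCA4 was 0.24 at dusk and -0.72 at dawn.

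AO, the aspartate oxidase that starts synthesis of nicotinamide adenine dinucleotide, was the gene with a larger difference. It went from 49.9, 37.8 and 42.0 CPM to 89.3, 87.3 and 108 CPM at ZT48 and from 4.46 and 4.66 CPM to 5.12, 5.87 and 5.60 CPM at ZT60. The change was 0.66 ± 0.19 (SE), adjusted p = 0.0222, and the call was lost without replicate 1, without replicate 2 and when only the groups compared were fitted. In total mRNA, where the controls are those of the rule, the change of the 85 had a median of -0.37, given without a test, beside -0.33 in TRAP. With ZT57 in place of dusk these medians were -0.11 and -0.024, and in TRAP 47 genes stood below 0 and 38 above.

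Within heated seedlings, 61 of the 85 genes were higher in TRAP than in total mRNA and 12 lower, where 38.3% and 34.4% of all genes were, with a median of 0.44 beside 0.02 over all genes. All 11 light-harvesting genes were in the higher group. The nucleoside triphosphate hydrolase family gene AT5G35970 at 1.34, NDA1, an alternative dehydrogenase, at 1.08 and CHLH at 1.07 were among them. The lowest were AT4G13575 at -3.18, the non-coding AT3G08405 at -2.10 and LNK2 at -1.85. AT3G08405 lies within LNK2 on the opposite strand, so the reads of this pair cannot be told apart. In controls the median of TRAP against total mRNA was 0.35, beside 0.005 over all genes, and 67 of the 85 stood above 0. This is given without a test because the total mRNA controls chose the genes.

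Whether heat moved ribosome-bound and total RNA by the same amount was tested as a difference between both heat effects, of which that in total mRNA uses the controls of the rule. It was higher in TRAP for 32 of the 85 genes and lower for 8, where 21.5% and 14.1% of all genes were. With library totals it was higher for 6 and lower for 22, where 1089 and 7148 of 22256 genes were. With TMM scaling and without the libraries of replicate 1 it was higher for 21. RVE8 had the largest excess, at 0.83 ± 0.10 (SE), adjusted p = 8.74e-12, and kept it with library totals at 0.60. Its total mRNA at ZT48 went from 76.6, 75.5 and 73.8 CPM to 47.0, 45.2 and 51.4 CPM, while its TRAP level went from 48.2, 48.7 and 51.7 CPM to 43.2, 50.9 and 43.8 CPM. The groups overlapped in TRAP and not in total mRNA. AFR, a kelch-repeat protein of phytochrome A signalling, followed at 0.61 with its overlapping AT2G24545 at 0.57, and GPX7, a glutathione peroxidase, at 0.55. With library totals AFR and AT2G24545 stayed called, and GPX7 stood at 0.32 without passing the test. The smallest values were those of AT4G13575 at -0.85, MIPS2 at -0.73, CNGC12 at -0.67 and LNK4 at -0.51, each also lower with library totals.

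Recovery was followed in the second experiment, in which seedlings were heated while these genes were on their way down. At the end of heat 33 of the 85 genes were higher and 15 lower in total mRNA, where 22.9% and 23.2% of all genes were, and 35 were higher and 13 lower in TRAP, where 24.6% and 25.3% were. Under both scalings 9 were higher (7.32% of all genes) and 15 lower (23.2%) in total mRNA, and 10 higher (6.73%) and 13 lower (25.3%) in TRAP. AT1G62510, AT3G03535, BBX18, CDF1, LNK1, MIPS2, RVE1 and AO were higher under both scalings in both kinds of RNA. AO was not among the 12 genes so found in the time course. Without the libraries in doubt 35 genes were higher and 16 lower in total mRNA, where 4930 and 4961 of 20984 genes were. In TRAP 43 were then higher and 17 lower, where 5906 and 6082 of 20782 genes were. Without replicate 3 the genes lower in TRAP numbered 8.

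After 1 h at 22 °C the balance had turned with TMM scaling. In total mRNA 8 genes were higher and 36 lower, where 9.78% and 9.64% of all genes were, and in TRAP 7 were higher and 48 lower, where 12.0% and 12.6% were. Without the libraries in doubt 8 were higher and 43 lower in total mRNA, where 2206 and 2223 of 20984 genes were. In TRAP 8 were then higher and 60 lower, where 3701 and 3941 of 20782 genes were. The genes lower in TRAP numbered 29 without replicate 3, and those higher 5 in total mRNA and 4 in TRAP without replicate 1. With library totals the median of the 85 was below 0 at both times. It went from -0.46 at 0 h to -0.36 at 1 h in total mRNA, and from -0.59 to -0.41 in TRAP. The median over all genes went from -0.77 to 0.03 in total mRNA and from -0.92 to 0.13 in TRAP. RVE1 turned within the hour. Its total mRNA in heated seedlings was 88.1, 74.3 and 90.3 CPM at 0 h and 6.58, 6.40 and 10.2 CPM at 1 h, beside 30.7, 28.1 and 28.9 CPM and 23.4, 21.6 and 18.7 CPM in controls. The heat effect went from 1.54 ± 0.22 (SE), adjusted p = 1.51e-06, to -1.41 ± 0.28 (SE), adjusted p = 0.000835. The largest falls at 1 h in total mRNA were those of AT2G15020 at -1.59, AT5G35970 at -1.54, FRO6 at -1.51 and NSP4 at -1.50. The 4 largest rises were those of MIPS2 at 2.91, AT5G20790 at 2.71, AT4G13575 at 1.01 and AT1G62510 at 0.97. AT5G20790 had the largest fall of the 85 in the time course. Its total mRNA at 1 h of recovery stood at 14.2, 10.2 and 11.7 CPM in heated seedlings and 1.87, 1.32 and 2.3 CPM in controls, with no overlap. All 6 clock members were lower at 1 h in TRAP and 5 of 6 in total mRNA. Of the light-harvesting members 8 of 11 were lower in TRAP and 1 in total mRNA, and without the libraries in doubt 11 and 4.

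At 3 h few genes differed. In total mRNA 5 of the 85 were lower and none higher, where 0.615% and 0.502% of all genes were, and in TRAP 13 were lower and none higher, where 4.21% and 2.25% were. The 5 were LNK2, LNK3, RVE8, ATH13 and AT1G66100. The number lower was 2, 0 and 8 without replicates 1, 2 and 3 in turn. Without the libraries in doubt 10 genes were lower and 2 higher, where 222 and 197 of 20984 genes were. In TRAP leaving out the libraries in doubt kept the falls at 13 and gave 2 rises. Leaving out replicates 1, 2 and 3 in turn gave 2, 7 and 8 falls in TRAP. For these TRAP counts the shares of all genes are not given here.

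At 6 h, at ZT60, a larger part of the set was lower again. In total mRNA 38 of the 85 genes were lower, where 4.04% of all genes were, and none was higher, where 2.28% of all genes were. In TRAP 39 were lower and 3 higher, where 3.37% and 2.02% of all genes were. The median was -0.60 in total mRNA and -0.72 in TRAP, beside -0.00 and -0.006 over all genes. Without the libraries in doubt, one of which belongs to the ZT60 controls in each kind of RNA, 36 were lower in total mRNA and 44 in TRAP, and 2 and 7 higher. The medians were then -0.40 and -0.53. Shares of all genes without these libraries are not given here, so these counts have no background beside them. Without replicate 1 the falls in total mRNA numbered 25, and without replicate 3 those in TRAP numbered 24.

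All 11 light-harvesting members were lower at 6 h in both kinds of RNA, with a median of -1.52 in total mRNA and -1.50 in TRAP, and of the 7 other genes of the list 4 were lower in each and LHCB4.3 was higher in total mRNA. Without the libraries in doubt 10 and 11 members were lower, LHCA3 no longer passing in total mRNA. LHCB2.1 in total mRNA stood at 473, 724 and 354 CPM in controls and at 86.4, 96.9 and 106 CPM in seedlings heated 6 h before, where the highest control is the library in doubt. Heated and control libraries did not overlap. The effect was -2.44 ± 0.18 (SE), adjusted p = 3.99e-11, and -2.11 without the libraries in doubt. At 0 h the same gene had stood at -0.12 without passing the test, while with library totals it was called lower at 0 h, at -0.86. In total mRNA LNK4 had the largest fall at 6 h with all libraries included, from 13.5, 17.7 and 11.4 CPM in controls to 2.41, 1.74 and 1.71 CPM, with an effect of -2.88 ± 0.27 (SE), adjusted p = 3.17e-09. AT3G55240 at -2.78 and BBX28 at -2.49 came next. In TRAP the largest was that of AT3G55240 at -2.97, before LNK3 at -2.56 and LNK4 at -2.52. The clock list was lower for 4 of 6 members in total mRNA and 5 in TRAP.

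Genes that were higher at 6 h in TRAP were UNE10, AT5G20790 and VTE1, which encodes tocopherol cyclase of vitamin E synthesis. Their effects were 0.65, 1.19 and 0.83. MIPS2 stood at 0.69 in total mRNA without passing the test, with controls at 19.0, 52.9 and 9.32 CPM and heated seedlings at 40.2, 48.5 and 46.9 CPM. The highest of all 6 libraries was the control in doubt, and without it MIPS2 and RVE1 were the 2 genes called higher in total mRNA, at 1.66 and 1.17.

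**Figure D5:**
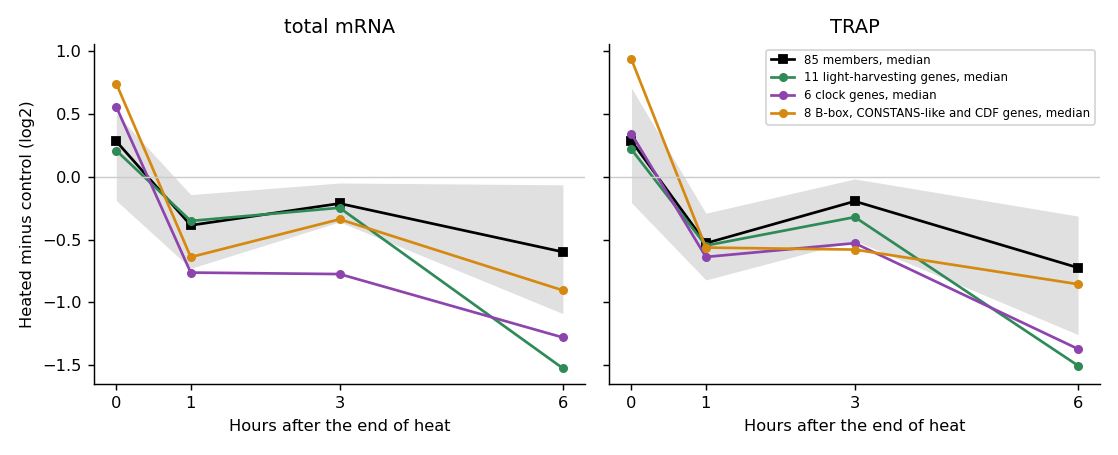
Heat effect (log2, heated minus control of the same time) against hours after the end of heat, for total mRNA on the left and TRAP on the right, as the median of the 85 genes (black, with the middle 50% of genes as a band) and of 3 lists among them. Error bars over libraries are not shown, and all libraries are included. With TMM scaling the light-harvesting median falls from 0.21 at 0 h to -1.52 at 6 h in total mRNA.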

How the data were processed

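Raw counts per gene were read from 2 tables as the authors deposited them, 1 for the time course (100 libraries) and 1 for recovery (48). Per the labels' protocols, polyadenylated RNA was amplified in 12 PCR cycles, and no molecular identifiers are named. The authors used HISAT2 2.2.0, cutadapt, FastQC and the TAIR10 build, per the submitters' processing notes. What tool, annotation and strand setting made the counts is not given in the sources used here. Members were chosen on CPM by library total without organelle genes. Tests used R 4.3.3 and edgeR 4.0.16 (filterByExpr with minimum count 10 and minimum total 15, TMM factors, robust quasi-likelihood fits of group means for each experiment and kind of RNA with all its libraries), were two-sided and were adjusted over all genes by Benjamini-Hochberg at 0.05. In recovery 88 of the 100 genes passed the filter, among them all 85 with unique sequence, and in the time course all 100 did. The members, gene lists and tests were chosen with earlier results of these data known, and so was the rule for genes named: list members, the threshold's neighbours, and the largest called changes of each comparison. A gene counted as unique where at least 50% of its exon positions start a 50-base stretch found once in TAIR10.1. Alternatives were RLE scaling, DESeq2 1.42.0, minimum count 1, a replicate block, only the groups compared, thinning, other settings of the choice of members, and each replicate left out. Added after the data were seen were library totals only, leaving out libraries in doubt, genes with unique sequence only, and ZT57 in place of dusk. Replicate numbers were not taken to pair the libraries. In the time course, deviations from the group mean correlated above 0.1 between same-numbered heated and control libraries in 6 of 23 pairs of total mRNA. In TRAP this held for 9 of 23 pairs. Pairing of total mRNA with TRAP libraries was not examined.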

Additional observations from a re-analysis of the deposited data

Results flagged for a closer look

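The heat effect differed between dawn and dusk in TRAP for 29 of the 85 genes by a test of the difference itself. For 28 the dawn to dusk difference was smaller in heated seedlings, and for 1, AO, it was larger. The dusk libraries belong to the second set of times, and with ZT57 in their place 12 were smaller and 0 larger. The ZT57 libraries include the heated TRAP library labelled ZT57 replicate 3, in which the repeated genes were as low as in the second set. The heat effect also differed between TRAP and total mRNA, where it uses the controls that chose the genes, and was higher in TRAP for 32 genes and lower for 8. With library totals in place of TMM factors these counts were 6 and 22, beside 1089 and 7148 of all 22256 genes.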

How the results depend on the processing

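Of 429 counts of called genes recomputed under an alternative, 376 stayed within 1.5 times the value reported, and 53 did not. Of 3248 values of single genes, 3021 kept their direction and side of the threshold, 125 lost the call, 62 gained it and 40 changed sign, all of the last with library totals only. Dawn to dusk counts in TRAP controls, heated total mRNA and heated TRAP, ZT60 against ZT54, and genes higher at ZT72 than at ZT60, stayed within 1.5 times under every alternative run. The 1 gene lower at ZT72 was not called without replicate 3. With library totals only, the genes called were 2 higher for change of the dawn to dusk difference with heat in TRAP, 9 higher and 73 lower for heat at dawn in TRAP, 16 higher and 50 lower for heat at dusk in TRAP, 12 higher and 64 lower for mean heat effect in total mRNA, 12 higher and 69 lower for mean heat effect in TRAP, 6 higher and 22 lower for heat effect in TRAP minus heat effect in total mRNA, 9 higher and 47 lower for heat at 0 h of recovery in total mRNA, 10 higher and 52 lower for heat at 0 h of recovery in TRAP, 2 higher and 2 lower for heat at 3 h of recovery in total mRNA. With only the groups compared in the fit they were 0 higher for change of the dawn to dusk difference with heat in TRAP, 23 lower for heat at 0 h of recovery in TRAP, 2 higher for heat at 3 h of recovery in total mRNA, 1 higher and 0 lower for heat at 3 h of recovery in TRAP, 25 lower for heat at 6 h of recovery in total mRNA, 1 higher for heat at 6 h of recovery in TRAP. With libraries thinned to the smallest total they were 4 lower for heat effect in TRAP minus heat effect in total mRNA. Without the libraries in doubt they were 2 higher and 10 lower for heat at 3 h of recovery in total mRNA, 2 higher for heat at 3 h of recovery in TRAP, 2 higher for heat at 6 h of recovery in total mRNA, 7 higher for heat at 6 h of recovery in TRAP. With ZT57 in place of ZT60 and ZT63 they were 0 higher and 12 lower for change of the dawn to dusk difference with heat in TRAP. With each replicate left out in turn, or the heated TRAP library labelled ZT57 replicate 3, the counts ranged over 0 to 2 higher for change of the dawn to dusk difference with heat in TRAP, 21 to 35 higher for heat effect in TRAP minus heat effect in total mRNA, 8 to 12 lower for heat at 0 h of recovery in TRAP, 5 to 7 higher for heat at 1 h of recovery in total mRNA, 4 to 6 higher for heat at 1 h of recovery in TRAP, 29 to 41 lower for heat at 1 h of recovery in TRAP, 0 to 1 higher for heat at 3 h of recovery in total mRNA, 0 to 8 lower for heat at 3 h of recovery in total mRNA, 0 to 1 higher for heat at 3 h of recovery in TRAP, 2 to 8 lower for heat at 3 h of recovery in TRAP, 0 to 2 higher for heat at 6 h of recovery in total mRNA, 25 to 36 lower for heat at 6 h of recovery in total mRNA, 0 to 3 higher for heat at 6 h of recovery in TRAP, 24 to 40 lower for heat at 6 h of recovery in TRAP. For mean heat effect in TRAP, library totals only gave log2 values of -0.58 for BBX28, -0.78 for LHCB2.1, -0.20 for AO, -0.67 for AFR, -0.66 for AT2G24545, -0.71 for LHCB2.2, -0.35 for LHCB3, -0.84 for LHCB1.1, -0.86 for LHCB1.2, -1.03 for LNK2, -0.28 for LHCA4, -0.0474 for PIF5, -0.35 for COL1, -0.27 for LHCA1, -0.0369 for LHCB4.2, -0.73 for CDF3, -0.40 for CHLH, -0.18 for LHCA3, -0.27 for LHCB6. For mean heat effect in total mRNA, library totals only gave log2 values of -0.22 for BBX28, -0.67 for LHCB2.1, -0.21 for AO, -0.54 for LHCB2.2, -0.34 for LHCB3, -0.76 for LHCB1.1, -0.53 for LHCB1.2, -0.34 for LNK2, -0.0309 for LHCA4, -0.43 for COL1, -0.0398 for LHCA1, -0.83 for CDF3, -0.54 for CHLH, -0.17 for LHCA3, -0.26 for LHCB6. For heat effect in TRAP minus heat effect in total mRNA, library totals only gave log2 values of -0.0124 for LHCB3, -0.072 for LHCB1.1, -0.0256 for SIG5, -0.0509 for LHCB4.2, -0.0125 for LHCA3, -0.009 for LHCB6. With the replicate number as a block, 29 genes had a smaller dawn to dusk difference and 1 a larger one, and 53 were higher and 16 lower after heat in TRAP. The block moved no count beyond 1.5 times, and samples with the same number did not deviate together throughout, so the numbers are not taken to pair libraries. Choosing members on TMM-scaled sizes kept 94 of the 100, an average of at least 5 CPM 84, a pseudocount of 5 CPM 94, and leaving out a replicate 81 to 91. Apart from library totals, whose shift of the typical gene is given above, and from fits with fewer libraries, the cause of these moves was not tested. With 2 or 3 libraries a group, small effects of genes near 10 CPM lie within the spread.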
